A study of Mus musculus with 24 samples.

Results

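The promoters of the genes that encode the proteasome were followed in ATAC-seq libraries, in which a transposase cuts open chromatin and the number of reads over an interval reports its accessibility. Consensus intervals were taken where the deposited annotation assigned them to a protein-coding gene with a symbol of the Psma to Psmg families plus a number, within 1000 bp of its transcription start site (TSS) and on chromosomes 1 to 19. This gave 34 intervals, 1 for each of 34 genes, among 145143 intervals in all and 10012 such intervals of any protein-coding gene. Of the 34, 33 belong to genes of proteasome subunits, activators, inhibitors and assembly chaperones, out of 49 such genes listed. The other, Psmc3ip, carries a matching symbol but encodes a meiotic recombination factor, and is given apart. The remaining 16 listed genes, among them Psmd14, the deubiquitinating lid subunit, and Psmd4, a ubiquitin receptor, had no interval that met the rule and were not analysed here.

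The cells were mouse embryonic stem cells kept without feeder cells in serum medium with LIF and inhibitors of MEK and GSK3. The libraries came from 4 lines: a wild type control line, a line carrying an inducible Firre transgene in wild type cells, a Firre knockout control line, and a Firre knockout line that also carries the inducible transgene. Firre is a long noncoding RNA gene of the X chromosome, and doxycycline, the inducer, was given to every line, controls included. Each line had 1 library at 0, 30, 60, 90, 120 and 150 min after doxycycline, except that the wild type transgenic line at 60 min was not analysed here, which leaves 23 libraries. The times therefore stand in as replicates of a line, and genotype and clone cannot be told apart. The p-values measure no more than the spread among libraries within lines, pooled over the 4 lines after effects of time they share.

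The proteasome degrades proteins tagged with ubiquitin. Its core particle is a barrel of alpha and beta subunits with the proteolytic sites inside, and its regulatory particle has a base, whose ATPases unfold substrates, and a lid, which removes ubiquitin. Dedicated chaperones assemble both, and immune variants of the catalytic subunits replace the standard ones after interferon. Subunit genes are known to be induced together by the transcription factor encoded by Nfe2l1 through antioxidant response elements, and pluripotent cells are known for high proteasome activity.

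Promoter sequence for 26 of the 33 subunit and chaperone genes was matched in RefSeq (GRCm38.p6, the assembly of build mm10). The 250 bases before the RefSeq start are shown for 3 promoters that were called higher in the knockout control (Psmb3, Psmd11, Psmd12) and for 2 catalytic subunits with an antioxidant response element core (Psmb5, Psmb6). They lie at chr11:97703184-97703433 (plus strand, Psmb3), chr11:80428365-80428614 (plus, Psmd11), chr11:107479278-107479527 (plus, Psmd12), chr14:54617996-54618245 (minus, Psmb5) and chr11:70525107-70525356 (plus, Psmb6). Each is written 5′ to 3′ on the gene's strand, and capitals mark the element core TGACNNNGC, the CCAAT box CCAAT or the ETS core CCGGAAG on either strand.
Psmb3: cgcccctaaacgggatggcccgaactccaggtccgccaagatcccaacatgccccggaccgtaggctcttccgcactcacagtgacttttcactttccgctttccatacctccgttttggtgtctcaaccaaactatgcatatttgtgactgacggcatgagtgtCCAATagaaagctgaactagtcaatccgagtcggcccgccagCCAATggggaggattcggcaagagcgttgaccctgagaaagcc
Psmd11: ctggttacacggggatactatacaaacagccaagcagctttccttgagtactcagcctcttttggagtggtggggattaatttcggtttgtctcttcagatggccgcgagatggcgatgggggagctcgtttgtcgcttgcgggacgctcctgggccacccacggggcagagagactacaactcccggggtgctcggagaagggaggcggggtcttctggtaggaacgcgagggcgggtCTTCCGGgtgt
Psmd12: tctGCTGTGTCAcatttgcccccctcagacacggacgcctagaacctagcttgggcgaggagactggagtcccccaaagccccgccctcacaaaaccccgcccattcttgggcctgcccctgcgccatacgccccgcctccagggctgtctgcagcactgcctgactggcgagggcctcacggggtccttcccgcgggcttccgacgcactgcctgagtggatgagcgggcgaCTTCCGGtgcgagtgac
Psmb5: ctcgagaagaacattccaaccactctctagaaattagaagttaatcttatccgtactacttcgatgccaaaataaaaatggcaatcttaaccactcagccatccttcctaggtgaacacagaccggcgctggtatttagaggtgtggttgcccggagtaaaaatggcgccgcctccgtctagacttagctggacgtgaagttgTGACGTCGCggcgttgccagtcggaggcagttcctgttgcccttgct
Psmb6: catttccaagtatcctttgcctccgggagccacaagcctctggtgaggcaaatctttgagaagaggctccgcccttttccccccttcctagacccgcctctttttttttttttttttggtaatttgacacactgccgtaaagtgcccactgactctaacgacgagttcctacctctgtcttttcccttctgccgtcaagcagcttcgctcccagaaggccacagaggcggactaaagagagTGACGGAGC
The Psmb3 promoter held 2 CCAAT boxes and neither of the other marked motifs. Psmd11 and Psmd12 each held an ETS core close to the start, with its first base at -11 and -17 relative to it, on the opposite strand.

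Over 300-base windows (250 before and 50 after the start), motifs were counted on both strands. The antioxidant response element core TGACNNNGC was present in 4 of 26 windows (15.4%), those of Psmb5, Psmb6, Psmd9 and Psmd12, against 14.7% of 7838 protein-coding promoter windows. The ETS core CCGGAAG was in 8 windows (30.8% against 18.5%), the NRF1 site in 4 (15.4% against 10.6%) and the TATA box TATAAA in 4 (15.4% against 6.94%). The CCAAT box was in 7 windows (26.9% against 37.7%) and the GC box GGGCGG in 14 (53.8% against 64.9%). The YY1 site AAGATGGCG was in the window of Psmb6 alone (3.85% against 2.95%). The median GC content of the windows was 55.0%, and that of all protein-coding windows 61.3%. A match is a description of letters, and nothing was tested on it.

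All 34 intervals passed the filter on low counts, with 13 to 741 reads per interval and library (median 148) and total counts of 5725518 to 14977148 per library. Intervals named for Firre checked the labels: their summed accessibility was 82.9 to 101 CPM (counts per 1000000 reads in intervals, on libraries scaled by the trimmed mean of M values, TMM) in the wild type control and 6.67 to 14.5 in the knockout control. Promoters of all 8 embryonic stem cell markers listed had an interval, at 12.4 to 28.0 CPM per kb. Of 6 fibroblast markers only Twist2 had one, at 5.85 CPM per kb, and of the trophoblast, mesoderm, endoderm and neural markers 3 of 4, 3 of 3, 1 of 4 and 1 of 3 had one, at 3.90 to 12.1 CPM per kb. The share of all counts that fell in promoter intervals was 38.1 to 39.7% in the wild type control and 41.0 to 43.1% in the knockout control, with no overlap, and 44.3% in the wild type transgenic line at 150 min.

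A member was required to have an interval near its start, so that these promoters were open was set by the selection. The listed genes without such an interval are not covered. In the wild type control, most members were more accessible per length than the typical protein-coding promoter interval. Their median there was 14.4 CPM per kb of interval, against 10.9 for all protein-coding promoter intervals, and 24 of the 34 lay above that value. Between members the level per kb differed up to 5.10-fold. The highest was Psmb3, a non-catalytic beta subunit, at 25.1 CPM per kb. Psmd8 (23.4) and Psmd11 (22.0), both of the lid, followed. The lowest was Psma6, an alpha subunit, at 4.93 CPM per kb.

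The alpha ring ran from 4.93 (Psma6) to 21.0 CPM per kb (Psma4) and the non-catalytic beta subunits from 7.51 (Psmb4) to 25.1 (Psmb3). The standard catalytic subunits were close together, with 10.9 CPM per kb at Psmb7, the trypsin-like subunit, 11.9 at Psmb6, the caspase-like one, and 13.1 at Psmb5, the chymotrypsin-like one. Of their interferon-inducible counterparts, Psmb8 had 6.07, Psmb10 had 9.06 and Psmb9 had 17.3 CPM per kb. The Psmb9 interval also holds the start of Tap1, the antigen peptide transporter gene read from the other strand, so its reads cannot be assigned to 1 of the genes. The Psmb1 interval holds the start of Tbp, the gene of the TATA-binding protein, and the same limit applies to its values. Psmb2, Psmb7, Psmc3, Psmd3, Psmd7 and Psmg2 had no matched RefSeq start, so a shared start there could have been missed.

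In the regulatory particle, the base ATPases ran from 9.37 (Psmc1) to 20.6 CPM per kb (Psmc4), and the base scaffold subunits had 15.2 (Psmd2) and 16.7 (Psmd1). The lid ran from 8.41 (Psmd6) to 23.4 (Psmd8). Assembly chaperones ran from 9.21 (Psmg3) to 15.2 (Psmg4), the activators had 13.2 (Psme3) and 13.4 (Psme1), and the inhibitor Psmf1 had 9.36. Psmc3ip had 13.8. Over the libraries of 1 line the coefficient of variation of a member had a median of 10.1%, from 4.28% (Psmd3, wild type control) to 26.2% (Psma6, knockout transgenic line), the latter at the fewest reads.

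The rule's limit of 1000 bp separates Psmb4, with its interval centred 841 bp from the start (9.25 ± 0.933 CPM, SD, n = 6 wild type control libraries), Psmd3 (818 bp, 44.7 ± 1.91 CPM) and Psme3 (722 bp, 18.5 ± 1.27 CPM) from intervals just outside it. Those outside are Psmd5, a base assembly chaperone, at 1085 bp (23.4 ± 2.33 CPM), a further Psmb4 interval at 1212 bp (3.76 ± 0.633 CPM) and Psmd4 at 1440 bp (1.55 ± 0.617 CPM). Distances are to the annotated start of the deposited file, which can differ from the RefSeq start used for the sequences. The RefSeq starts of Psmb4 and Psme3 lie inside their intervals within the rule.

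**Figure D1:**
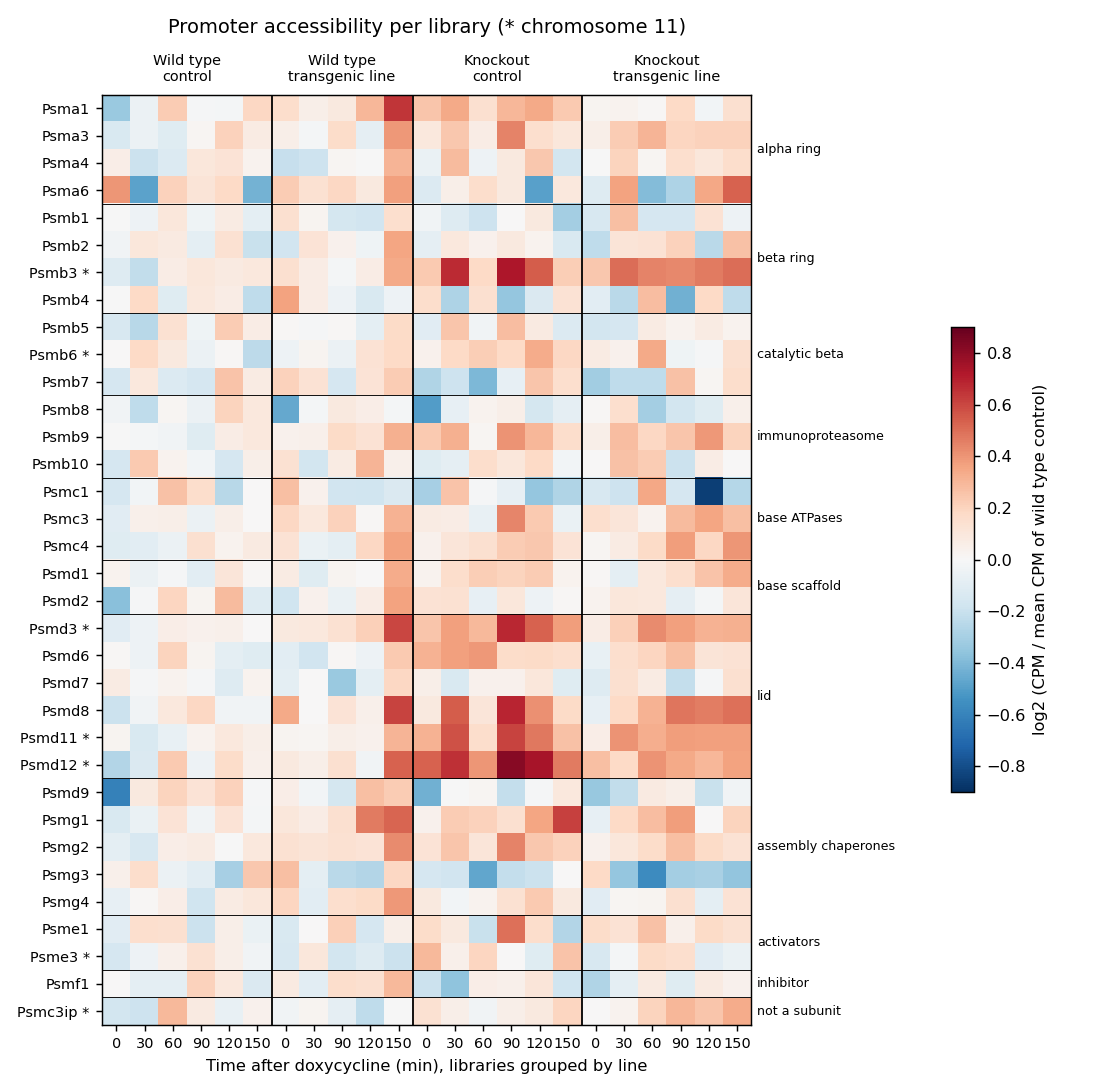
Accessibility of the 34 proteasome promoters in each library, as log2 of CPM over the mean of the wild type control. Rows are genes grouped by role, with an asterisk for chromosome 11, and columns are libraries ordered by line and time. Psmb3, Psmd3, Psmd11 and Psmd12 are red across the knockout control, and the column of the wild type transgenic line at 150 min is red for most genes.

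The first comparison asked how the promoters differ between cells with and without Firre, from the knockout control and the wild type control. The promoters of 4 of 6 lid members (Psmd12, Psmd3, Psmd11 and Psmd8), of the core subunit Psmb3 and of the chaperone Psmg1 were more accessible in the knockout control. In all, 6 of the 34 proteasome promoters were called higher and 0 lower (edgeR quasi-likelihood test, Benjamini-Hochberg adjusted p of 0.05 or less over all intervals tested), which is 17.6%. The same test called 7.97% of all intervals and 21.2% of protein-coding promoters, so the share among proteasome promoters was near that of promoters in general. On chromosome 11, which holds 3 of the 4 called lid members, 4 of 7 members were called, and on the other chromosomes 2 of 27. Protein-coding promoters were called in 47.9% on chromosome 11 and in 18.6% elsewhere.

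Psmd12, a lid scaffold subunit (interval chr11:107478796-107479958, annotated promoter-TSS), had 16.5, 19.7 and 23.2 CPM (lowest, median, highest) in the wild type control and 26.0, 29.8 and 34.8 in the knockout control. Every knockout control library was above every wild type control library. The log2 difference was 0.59 ± 0.09 (SE; 1.51-fold; edgeR adjusted p = 1.1e-06). In the wild type transgenic line it had 21.0, 20.5, 21.8, 19.3 and 28.6 CPM at 0, 30, 90, 120 and 150 min. The knockout transgenic line, at 22.4 to 26.1 CPM with a median of 24.7, lay between its own control and the wild type control.

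Psmb3 (chr11:97702523-97703809, promoter-TSS) had 27.6, 33.9 and 34.5 CPM in the wild type control and 36.5, 42.5 and 53.3 in the knockout control, again without overlap. Its log2 difference was 0.43 ± 0.09 (1.35-fold; edgeR adjusted p = 3.4e-04). The knockout transgenic line stayed at 38.1 to 45.7 CPM, above all wild type control libraries, and the wild type transgenic line had 35.6, 33.7, 31.8, 33.7 and 40.7 CPM. Psmb3 was thus high in both knockout lines, while its highest libraries, the knockout control at 30 and 90 min, were 51.3 and 53.3 CPM.

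Psmd3, a lid subunit whose interval is the widest of the set at 2792 bp (chr11:98680378-98683169, promoter-TSS), had 41.6, 45.3 and 46.5 CPM in the wild type control and 53.1, 57.7 and 71.6 in the knockout control. The libraries did not overlap, and the log2 difference was 0.42 ± 0.08 (1.34-fold; edgeR adjusted p = 2.4e-04). Psmd11, the lid subunit that contacts the core particle (chr11:80428264-80429454, annotated intron and spanning the start), had 23.8, 26.7 and 27.9 CPM against 29.2, 34.5 and 39.9. It too showed no overlap, with a log2 difference of 0.40 ± 0.09 (1.32-fold; edgeR adjusted p = 7.9e-04).

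The 2 called promoters on other chromosomes had overlapping libraries. Psmd8, a lid subunit (chr7:29180112-29181115, promoter-TSS), had 20.5, 23.0 and 26.6 CPM in the wild type control and 24.9, 28.8 and 37.6 in the knockout control. The log2 difference was 0.33 ± 0.09 (1.26-fold; edgeR adjusted p = 0.0151), and the call was lost without the wild type control at 150 min or the knockout control at 30, 90 or 120 min (edgeR adjusted p = 0.0566 to 0.109). Psmg1, a chaperone of alpha ring assembly (chr16:95990141-95991123, promoter-TSS), had 12.9, 14.0 and 15.5 CPM against 14.6, 16.5 and 21.8. Its log2 difference was 0.28 ± 0.09 (1.21-fold; edgeR adjusted p = 0.0474). That call was lost under 25 of 34 alternatives, including the omission of any wild type control library or of the knockout control at any time but 60 min. Psmg2, a chaperone on chromosome 18, was not called (0.23 ± 0.08, edgeR adjusted p = 0.0777). Its libraries nevertheless did not overlap, with 22.1 to 26.1 CPM against 26.4 to 33.3. The share of all promoters without overlap between the control lines was not counted. A lack of overlap can therefore not be read as particular to proteasome promoters.

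**Figure D2:**
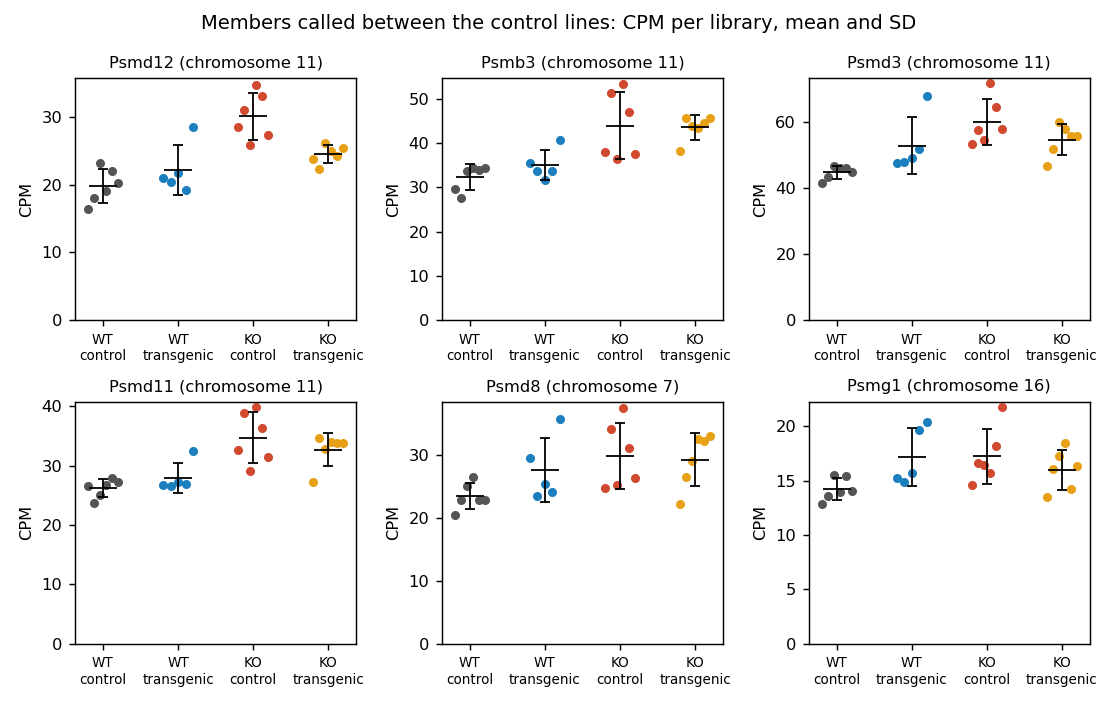
CPM per library of the 6 proteasome promoters called between the control lines, by line, with points for libraries in time order and the mean ± SD of 6 libraries (5 in the wild type transgenic line) as bars. The knockout control lies wholly above the wild type control for Psmd12, Psmb3, Psmd3 and Psmd11, and overlaps it for Psmd8 and Psmg1.

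By role, 4 of 6 lid members were called (Psmd3, Psmd8, Psmd11, Psmd12), of which 3 lie on chromosome 11. Protein-coding promoters of any gene were called in 47.9% on that chromosome and in 18.6% elsewhere. The roles hold few members, and a difference between roles was not tested. The other lid members were Psmd6 at a log2 difference of 0.25 ± 0.10 (edgeR adjusted p = 0.0899) and Psmd7, the partner of the deubiquitinase, at 0.00 ± 0.09. Among the core and chaperone genes, 1 of 4 non-catalytic beta members and 1 of 5 assembly chaperones were called. None of the 4 alpha ring, 3 base ATPase, 2 base scaffold, 2 activator or 1 inhibitor members was called. Psmc3ip, on chromosome 11, had 0.07 ± 0.09.

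No catalytic subunit was called. The log2 differences were 0.04 for Psmb5 (95% interval -0.13 to 0.22), 0.19 for Psmb6 (0.02 to 0.36) and -0.07 for Psmb7 (-0.27 to 0.13). The immune subunits had -0.12 for Psmb8 (-0.32 to 0.09), 0.24 for Psmb9 (0.07 to 0.41) and 0.04 for Psmb10 (-0.14 to 0.22). Psmb9 had edgeR adjusted p = 0.0664. Psmb6 is the catalytic gene that lies on chromosome 11, with 17.3, 20.5 and 23.1 CPM in the wild type control against 20.9, 23.2 and 25.7, and its libraries overlapped. Psmb5 had 16.6, 20.1 and 23.2 CPM against 18.2, 20.2 and 24.1, nearly the same range.

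The median log2 difference of the 34 members was 0.09, against 0.12 for all protein-coding promoters and -0.02 for all intervals. The 7 members on chromosome 11 had a median of 0.40, from 0.07 (Psmc3ip) to 0.59 (Psmd12), beside 0.28 for the chromosome's promoters. The other 27 had 0.04, beside 0.11 for promoters elsewhere. Since the share of counts in promoters was itself higher in the knockout control, the level of promoters as a whole depends on the scaling. The promoter median was 0.03 under scaling by total counts, -0.02 with TMM from promoters alone and 0.00 with loess offsets, and promoter calls were 1996 higher and 72 lower as fitted, 1235 and 265, 978 and 487, and 461 and 306. Under these scalings 4, 4 and 2 proteasome promoters were called, all higher and all on chromosome 11. The knockout control of 30 and 90 min had the highest promoter shares of that line, and leaving out both gave 2 calls, Psmd12 and Psmd3. With the promoter share as a covariate 0 were called, and the log2 difference of Psmd12 was 0.23 (edgeR adjusted p = 0.596). That share did not overlap between the control lines, so this fit can hardly separate it from the line. It called 0.0432% of all intervals.

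**Figure D3:**
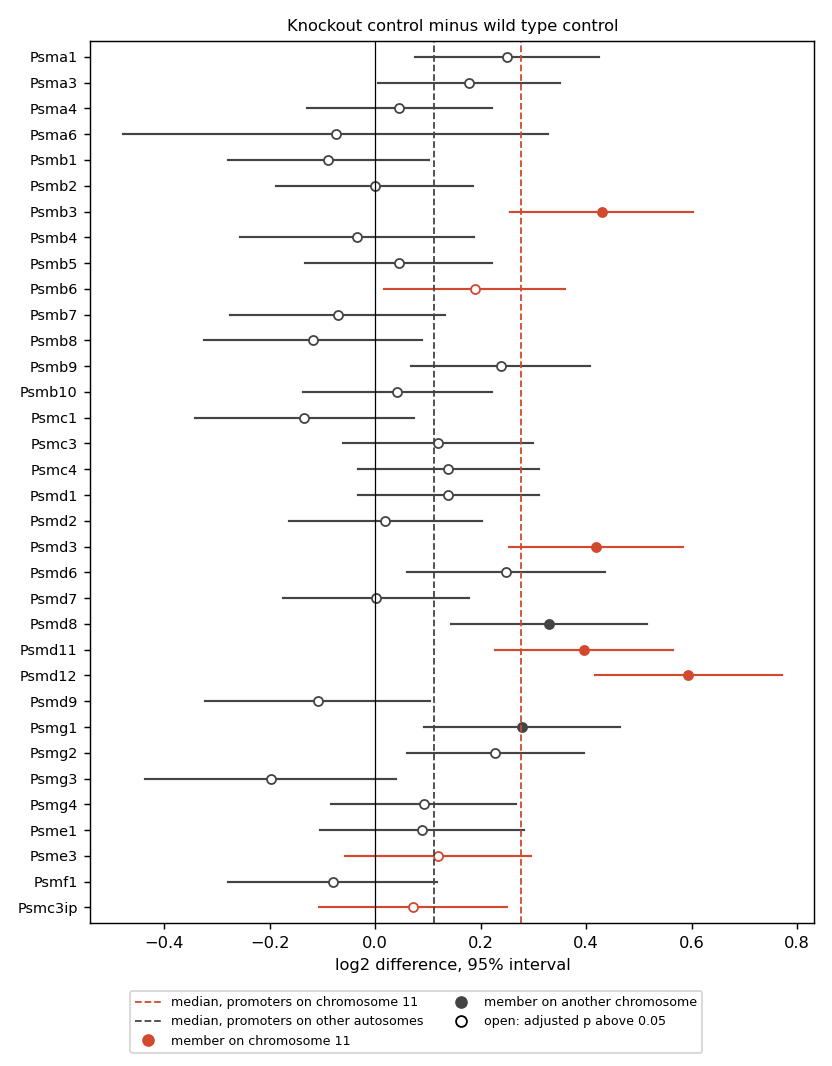
Log2 difference of each proteasome promoter, knockout control minus wild type control, with 95% intervals. Filled points passed the adjusted test and red marks chromosome 11, and dashed lines are promoter medians on chromosome 11 (0.28) and on the other autosomes (0.11). Psmd12, Psmb3, Psmd3 and Psmd11 lie to the right of both lines.

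A ratio of counts within a library needs no scaling between libraries. The counts of the 7 chromosome 11 members over those of the other 27 were 0.385 to 0.412 in the wild type control (median 0.399) and 0.452 to 0.498 in the knockout control (median 0.480), without overlap. The wild type transgenic line had 0.393, 0.420, 0.397, 0.398 and 0.408, within or next to the range of its control. The knockout transgenic line had 0.440 to 0.475 (median 0.449), above every wild type library and partly below the knockout control. The same ratio over all protein-coding promoters was 0.0986 to 0.1000 in the wild type control and 0.111 to 0.113 in the knockout control. It was 0.105 to 0.110 in the knockout transgenic line and 0.0966 to 0.0987 in the wild type transgenic line. The part of the whole chromosome in the proteasome values was not tested.

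**Figure D4:**
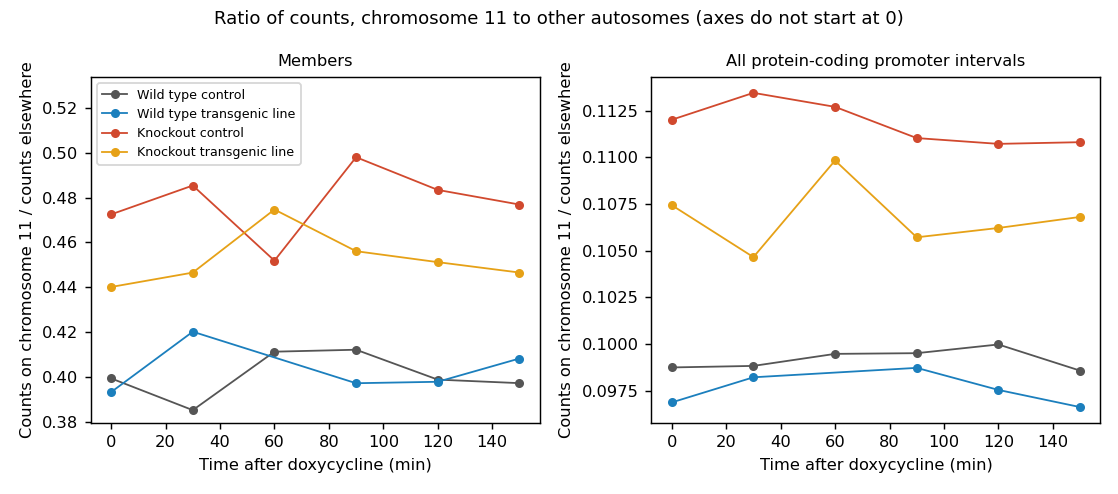
Counts in intervals on chromosome 11 over counts in those on the other autosomes, per library and time, for the 34 proteasome promoters (left) and all protein-coding promoters (right). Axes do not start at 0, and each line of points is 1 cell line. Both knockout lines lie above both wild type lines in each panel at every time.

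As a share of all promoter counts, proteasome promoters together held 0.336 to 0.354% in the wild type control and 0.337 to 0.346% in the knockout control. The knockout transgenic line held 0.328 to 0.342% and the wild type transgenic line 0.335 to 0.352%, so the 4 ranges overlapped. Their summed level was 585 to 654 CPM in the wild type control and 668 to 780 in the knockout control, which did not overlap, and the summed level of all promoters differed in the same direction (173980 to 188390 against 192910 to 230270 CPM).

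In knockout cells the transgenic line was set against the knockout control over all times, 0 min included. This is a difference between lines and not a response to induction. No proteasome promoter was called (0 of 34; 2 at an unadjusted p under 0.05; 0 by DESeq2 and 0 by limma-voom), where edgeR called 0.913% of all intervals and 0.358% of protein-coding promoters. Among 9768 protein-coding promoters, 865 had an unadjusted edgeR p under 0.05. The median log2 difference was -0.01, as for promoters in general (-0.01). The members with the smallest p were Psmd12 at -0.29 ± 0.09 (edgeR adjusted p = 0.0724), Psma1, an alpha subunit, at -0.20 ± 0.09 (0.302) and Psmd3 at -0.13 ± 0.08 (0.532).

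Psmd12, the promoter with the largest difference between the controls, was also the one nearest to a call here. It had 26.0, 29.8 and 34.8 CPM in the knockout control and 22.4, 24.7 and 26.1 in the knockout transgenic line, where only the knockout control at 60 min reached the transgenic range. It was called lower under 5 of the other settings (edgeR adjusted p = 0.0063 with loess offsets to 0.0387 with the covariate). Those settings called 0.584 to 1.44% of protein-coding promoters. Psmd12 was also called when the knockout control of 60 min (0.0288) or 150 min (0.0106) was left out, or the wild type transgenic line at 150 min (0.0299), all by edgeR adjusted p. The comparison shares the knockout control with the one above, so a high value in that line raises the first difference and lowers this one.

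Higher values with the smallest p were 0.11 ± 0.09 at Psmc3ip, 0.09 ± 0.09 at the ATPase Psmc3 and 0.07 ± 0.08 at Psmc4. The catalytic subunits had log2 differences of -0.06 (Psmb5, 95% interval -0.24 to 0.11), -0.10 (Psmb6, -0.27 to 0.07) and 0.03 (Psmb7, -0.17 to 0.23). The immune ones had 0.06 (Psmb8, -0.15 to 0.26), -0.01 (Psmb9, -0.17 to 0.16) and 0.02 (Psmb10, -0.16 to 0.19). Each of these intervals includes 0.

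In wild type cells the transgenic line was set against the wild type control. Again 0 of 34 members were called (5 at an unadjusted p under 0.05; 0 by DESeq2 and 0 by limma-voom), beside 0.0818% of all intervals and 0.0614% of protein-coding promoters. Of 9768 protein-coding promoters, 1389 had an unadjusted edgeR p under 0.05. The median was 0.07, equal to that of promoters in general at 0.07. A positive difference was found for 27 members (79.4%), beside 69.3% of protein-coding promoters. The members' median was 0.022 without this line's 150 min library (0.026 for promoters) and 0.033 without the wild type control at 150 min (0.060 for promoters). Psmg1 had 0.27 ± 0.10 (edgeR adjusted p = 0.468), Psma1 0.24 ± 0.09 (0.499) and Psmd3 0.23 ± 0.09 (0.499). On the other side were Psme3, a nuclear activator, at -0.10 ± 0.10, Psmd7 at -0.06 ± 0.09 and Psmc3ip at -0.07 ± 0.10.

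The library at 150 min stood out in this line. Its summed proteasome promoters reached 779 CPM, beside 653, 631, 641 and 653 CPM at 0, 30, 90 and 120 min, and its promoter share was also the highest. Psmd3 had 47.5, 47.7, 49.0 and 51.9 CPM and then 67.7 at 150 min, all above the wild type control's highest value of 46.5. Psmg2, the partner chaperone of Psmg1, had 26.8, 26.5, 26.8, 26.6 and 32.8 CPM, above the wild type control at 22.1 to 26.1 CPM. As a share of promoter counts the 150 min library was not high, at 0.342%.

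For the catalytic subunits the log2 differences in wild type cells were 0.02 (Psmb5, 95% interval -0.17 to 0.20), 0.07 (Psmb6, -0.12 to 0.25) and 0.04 (Psmb7, -0.16 to 0.25). The immune subunits had -0.05 (Psmb8, -0.26 to 0.16), 0.13 (Psmb9, -0.05 to 0.31) and 0.10 (Psmb10, -0.08 to 0.29).

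**Figure D5:**
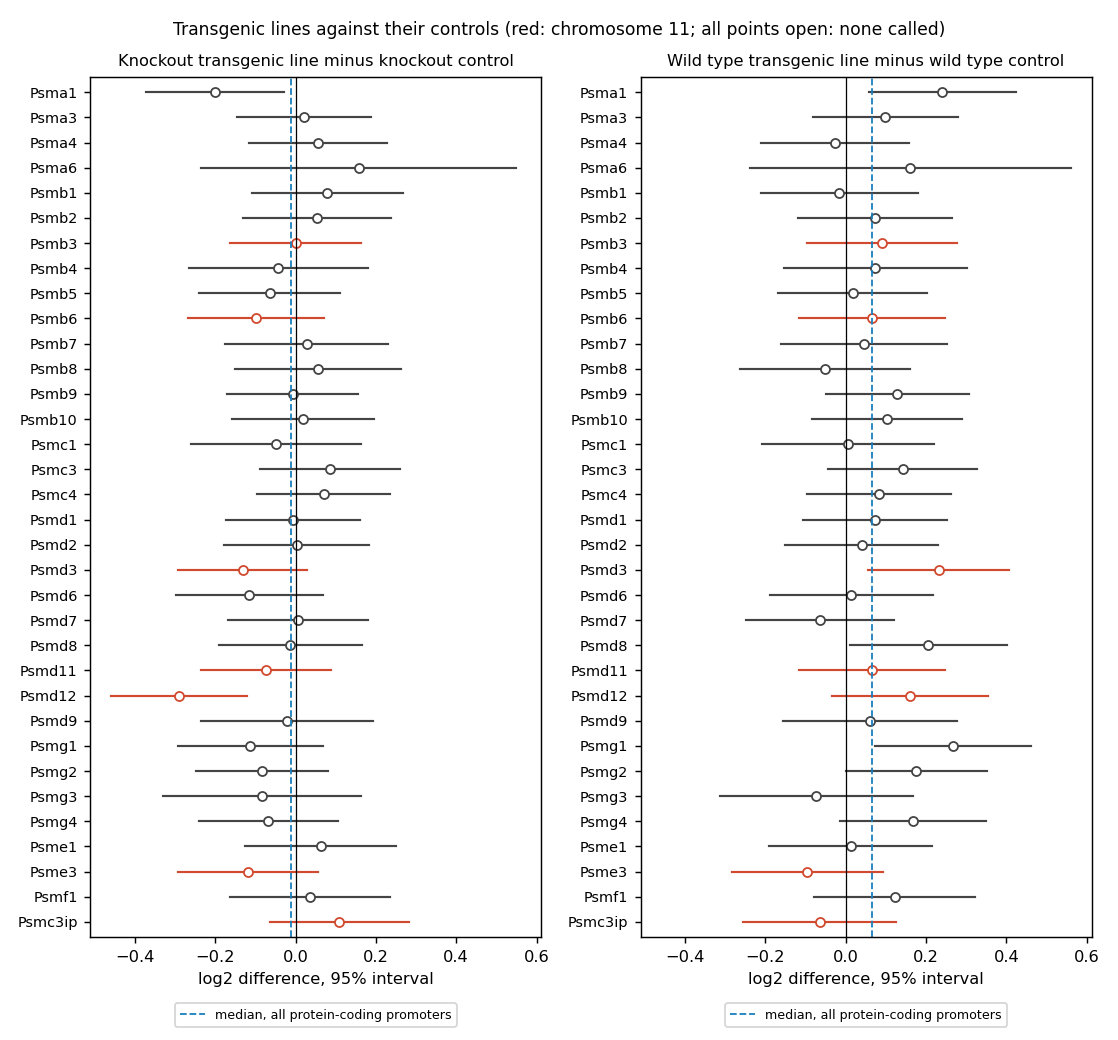
Log2 difference of each proteasome promoter between a transgenic line and its control, in knockout cells (left) and wild type cells (right), with 95% intervals. Red marks chromosome 11, and the dashed line is the median of all protein-coding promoters. No point passed the adjusted test, and Psmd12 in knockout cells (-0.29) lies farthest from 0.

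Whether the transgenic contrast differed between the backgrounds was tested by its interaction, wild type minus knockout. No member was called (5 at an unadjusted p under 0.05; 0 by DESeq2 and 0 by limma-voom), against 0.266% of all intervals and 0.338% of protein-coding promoters. An unadjusted edgeR p under 0.05 was found for 1315 of 9768 protein-coding promoters. The smallest p among positive values were those of Psma1 at 0.44 ± 0.13 (edgeR adjusted p = 0.105), Psmd12 at 0.45 ± 0.13 (0.109) and Psmd3 at 0.36 ± 0.12 (0.193), while Psmg1 had 0.38 ± 0.13 (0.227). The median was 0.08 as in promoters in general, and 0.041 without the wild type transgenic line at 150 min (0.043 for promoters) or 0.050 without the knockout control at 90 min (0.067 for promoters). Psma1 had 25.5, 23.6, 24.3, 28.1 and 35.7 CPM in the wild type transgenic line against 18.1 to 26.8 in its control. In knockout cells it had 22.4 to 25.8 CPM with the transgene and 25.2 to 28.9 without. Psma1 and Psmd12 were called with intervals of a mean count of at least 50 (edgeR adjusted p = 0.0214 and 0.0233). That setting called 1.67% of all its intervals and 2.11% of its protein-coding promoters. Up to 3 members were called when 1 library was left out, and the 3 came without the knockout control at 150 min. That omission also raised the calls over all intervals between the control lines. The share of promoters called is not set beside these counts. Negative values had larger p: -0.17 ± 0.13 at Psmc3ip, -0.11 ± 0.15 at Psmb8 and -0.10 ± 0.14 at Psmb1. The remaining catalytic genes had 0.08 (Psmb5), 0.16 (Psmb6), 0.02 (Psmb7), 0.14 (Psmb9) and 0.08 (Psmb10).

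The response to induction was the change from 0 min to the mean of 30 to 150 min in the transgenic lines minus that in the controls. It called 0 members, and 0% of all intervals, with 0 members at an unadjusted p under 0.05 and none called by DESeq2 or limma-voom. The median response was 0.00. Psmg3, an alpha ring chaperone, had -0.43 ± 0.23, Psmd9, a base chaperone, -0.42 ± 0.23 and the ATPase Psmc1 -0.36 ± 0.20. On the positive side, Psmb2 had 0.23 ± 0.18, Psmd6 0.21 ± 0.19 and Psmd7 0.17 ± 0.17. Each had edgeR adjusted p = 1.00. The standard errors show what a single 0 min library per line allows.

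Psmg3 had 8.49 CPM at 0 min in the knockout transgenic line and 5.90, 5.08, 6.07, 6.11 and 5.86 afterwards. In the wild type transgenic line it had 9.03 at 0 min and 7.05, 6.35, 6.25 and 8.53 later. Both 0 min libraries were thus the highest of their lines, in an interval with few reads. The wild type control had 6.10 to 8.89 CPM and the knockout control 5.43 to 7.52, ranges that hold most of these values.

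Doxycycline alone was read from the control lines, again as the mean of 30 to 150 min minus 0 min. Here too 0 members were called by edgeR, DESeq2 or limma-voom, of 0% of all intervals by edgeR, with 2 members at an unadjusted p under 0.05. Of 9768 protein-coding promoters, 562 had an unadjusted edgeR p under 0.05. Psmd9 had 0.57 ± 0.16 (edgeR adjusted p = 0.901), Psmd8 0.27 ± 0.13 (0.946) and Psmg1 0.23 ± 0.14 (0.949). Psmd9 had 6.45 CPM at 0 min in the wild type control and 9.75 to 11.3 later, and 7.30 in the knockout control and 8.49 to 10.5 later. In the transgenic lines it had 10.2 and 7.77 CPM at 0 min, and 8.80 to 11.8 and 8.45 to 10.4 later. The lowest values were Psma6 at -0.19 ± 0.27, Psmb4 at -0.11 ± 0.15 and Psmd7 at -0.07 ± 0.12. The median over members was 0.09, and over promoters 0.07.

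A joint test of every transgene by time term asked for any departure between transgenic and control lines at any time. It called 0 members by edgeR, DESeq2 and limma-voom, and 0.000772% of all intervals by edgeR, which is 1 interval. The smallest unadjusted p were 0.0215 for Psmd8, 0.043 for Psmb2 and 0.107 for Psmc1, each with edgeR adjusted p = 1.00.

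Genes that act around the proteasome were read by the same rule. Of 30 listed (transcription factors, shuttle proteins, ubiquitin genes, activating enzymes and accessory subunits), 16 had an interval. Between the control lines 6 of the 16 were called higher and 0 lower, beside the 21.2% of protein-coding promoters. Nfe2l1, the factor that induces subunit genes, lies on chromosome 11 (interval chr11:96822408-96824642). It had 34.2, 37.9 and 42.2 CPM in the wild type control and 48.2, 56.8 and 66.5 in the knockout control, without overlap. Its log2 difference was 0.59 ± 0.08 (1.51-fold; edgeR adjusted p = 2.4e-07). The wild type transgenic line had 39.0, 34.6, 42.0, 41.0 and 50.7 CPM, and the knockout transgenic line 45.9 to 55.5.

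The other called genes lie on other chromosomes. Uba6, an alternative ubiquitin-activating enzyme, had 0.39 ± 0.08 (edgeR adjusted p = 6.9e-04) and Zfand5, a proteasome-stimulating zinc finger protein, 0.37 ± 0.09 (0.00261). Nfe2l2, the oxidative stress factor, had 0.31 ± 0.08 (0.00988), Rad23b, a shuttle for ubiquitinated proteins, 0.29 ± 0.09 (0.0213) and Adrm1, a ubiquitin receptor of the base, 0.26 ± 0.08 (0.0324). Sem1, a small lid subunit, had 0.23 ± 0.09 (0.106) and Usp14, a deubiquitinase, 0.05 ± 0.29 (0.943). The call of Nfe2l1 was lost with the promoter share as a covariate alone among the alternatives run. With loess offsets Uba6 had 0.14 (edgeR adjusted p = 0.135) and Zfand5 0.076 (0.454), so both calls were lost, as they were with the covariate, and that of Zfand5 also on omission of both knockout control libraries of 30 and 90 min. The calls of Nfe2l2, Rad23b and Adrm1 were lost under these 3 alternatives too, without the 0 min libraries, and when single libraries were left out. Those of Rad23b and Adrm1 were also lost under total counts, TMM from promoters and a mean count of at least 50. Pomp and Uchl5 had no interval that met the rule and were not analysed here.

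In the transgenic lines 0 of the 16 were called, against either control. In wild type cells all 16 had a positive log2 difference, as had 69.3% of protein-coding promoters. Their median was 0.16 beside 0.07 for promoters in general, while the 150 min library was high in that line as described. In knockout cells 8 of the 16 were positive, with a median of -0.01, beside 46.2% positive among protein-coding promoters.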

How the data were processed

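ATAC-seq counts of 23 libraries were used, 1 per line and time. The deposited table holds raw counts per consensus interval, with no normalization by the authors, and the deposited annotation gives gene names, positions and distances to the TSS. MACS2 2.2.7.1, featureCounts and build mm10 are named in the submitters' processing notes. Which aligner and annotation were used, and how duplicates and the transposase shift were handled, is not given in the sources used here.

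Intervals were filtered with filterByExpr (minimum count 10), which left 129515 of 145143. Counts were scaled by TMM and tested with edgeR 4.0.16 (robust quasi-likelihood, R 4.3.3) on line and time, or on line, time and transgene by time, with 14 and 9 residual degrees of freedom. Adjustment (Benjamini-Hochberg) ran over all tested intervals, with a threshold of 0.05. All libraries shared 1 estimate of the spread. CPM are counts per 1000000 of TMM-scaled libraries. Scripts were tested on simulated data.

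The members and lists were chosen with earlier results of these data known. Named are called members (up to 8 a direction), otherwise the 3 with the smallest p in each direction, the catalytic subunits, the highest and lowest level of each role, and Nfe2l1, Adrm1, Sem1, Pomp, Usp14, Uchl5 and up to 5 called genes of the pathway. Psmg2 and the members described at single times for a library that stood apart were chosen after their values were seen. Alternatives were scaling by total counts, TMM from promoters alone, loess offsets (span 0.3), DESeq2 1.42.0, limma-voom (limma 3.58.1), no filter, a mean count of at least 50, the promoter share as a covariate, no time term, and leaving out libraries. They also included members outside chromosome 11 alone and a distance of at most 500 bp. Sequences are from RefSeq windows (GRCm38.p6), matched by symbol for 27 of the 34 members.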

Additional observations from a re-analysis of the deposited data

Results flagged for a closer look

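Values of each member were compared within each line for a library far from the others (Dixon's gap test at 95%). Of 148 groups of libraries tested 11 were marked, where chance marks about 1 in 20. The wild type transgenic line at 150 min was the high library for Psmd11 (32.4 CPM), Psmd12 (28.6 CPM), Psmd3 (67.7 CPM), Psmg2 (32.8 CPM) and the sum of all proteasome promoters (779 CPM), and its promoter share, 44.3%, was the highest of the 23 libraries. The knockout transgenic line at 0 min was the low library for Psmb3 (38.1 CPM) and Psmd11 (27.3 CPM) and the high one for Psmg3 (8.49 CPM). Single marks fell on Psmd9 in the wild type control at 0 min (6.45 CPM, low), Psmb8 in the wild type transgenic line at 0 min (8.10 CPM, low) and Psme3 in that line at 30 min (19.9 CPM, high). Neighbouring members of a library share its depth and scaling, so these marks are not independent.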

How the results depend on the processing

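Between the control lines 6 members were called, and 2 with loess offsets, 0 with the promoter share as a covariate, 2 without the knockout control at 30 and 90 min, 2 among members outside chromosome 11, and 4 to 9 with 1 library left out. The 9 came without the knockout control at 150 min, where the calls over all intervals also rose, from 10324 to 17196. Psmd12 kept its call in every fit run except that with the covariate, whose values did not overlap between the control lines. The median of 0.09 was -0.0037 under scaling by total counts, -0.0046 with a mean count of at least 50, -0.050 with TMM from promoters, -0.028 with loess offsets and -0.061 with the covariate. There Psmd8 turned to -0.10, Rad23b to -0.17 and Zfand5 to -0.11, and with loess offsets Adrm1 had -0.0073, Nfe2l2 -0.021 and Rad23b -0.035. The cause was not tested. Over all intervals, 10324 calls became 56 with the covariate, 6247 with loess offsets, 6074 by DESeq2, 2135 without the knockout control at 30 and 90 min, 5207 without that at 90 min and 17196 without that at 150 min.

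Between the knockout transgenic line and its control 1 member, Psmd12, was called under some settings, and 0 to 1 with 1 library left out. These settings were total counts, promoter TMM, loess offsets, a mean count of at least 50 and the covariate. They called 0.823 to 2.82% of all intervals and 0.584 to 1.44% of protein-coding promoters. For the difference between backgrounds 2 were called with a mean count of at least 50, a setting that called 2.11% of its protein-coding promoters. With 1 library left out 0 to 3 were called (3 without the knockout control at 150 min, which also raised the calls over all intervals between the control lines). With the covariate the medians of the wild type contrast and of the difference were -0.030 and -0.046. The median response to induction ran from -0.063 to 0.090 with 1 library left out, the latter without the wild type transgenic line at 0 min. Libraries were matched across lines by time through the term for time, and without that term 6 members were called between the control lines and 0 in each other comparison of lines, as with it. The labels carry no replicate numbers.

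The limits are 1 library per line and time and about 148 reads per member and library, with a median standard error of 0.09 on the log2 scale between the control lines, where the smallest called difference was 0.28.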
